A study of Dugesia japonica with 15 samples.

Results

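Planarians are freshwater flatworms able to rebuild whole animals from fragments. In the species Dugesia japonica, 33 genes were higher after RNA interference (RNAi) against DjTcf4 than after control RNAi, both in intact animals and in trunk fragments at 5 days post amputation (5 dpa). They were chosen by measured level, in CPM (a gene's count scaled to its library's total). The rule kept gene models with the prefix DJKW and a median of at least 5 CPM over all 15 libraries, and a log2 ratio of group median CPM, RNAi to control with 0.5 CPM added to each, of at least 0.4 at each stage. The log2 ratio of control 5 dpa to control intact also had to lie between -1 and 1. Of 38792 rows in the deposited table, 28999 carry the DJKW prefix, 11192 of these had the required level, and 10178 of those lay inside the amputation bounds. These 10178 are called the eligible genes, and the 33 members are 0.324% of them.

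Messenger RNA was sequenced from whole intact animals or trunk fragments after RNAi against DjTcf4 or control RNAi. Intact animals gave 4 control and 4 DjTcf4 RNAi libraries. Trunk fragments at 5 dpa gave 4 control libraries and 3 of DjTcf4 RNAi, numbered 1, 3 and 4. Every group received RNAi, the labels give neither animal age nor strain, and RNA came from groups of animals. In such bulk samples, more cells of a type and more RNA per cell cannot be told apart.

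TCF proteins bind DNA and pass on Wnt signals together with β-catenin, and in its absence many of them repress their target genes. In planarians, Wnt signalling through β-catenin sets head and tail identity, and regeneration draws on dividing stem cells called neoblasts. Whether DjTcf4 works in this way was not examined here. The deposited table pairs no row with a gene name, so no member is given a function, and the knockdown was not checked on DjTcf4 itself. Members are ranked from 1 to 33 by the smaller of their RNAi log2 ratios, and 2 of them are named by their ID.

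Libraries held between 8136366 and 12224216 counts. DjTcf4 RNAi intact replicate 2 stood apart from its group: 28.1% of the eligible genes lay at least 0.4 above the control intact median (log2) there, against 5.46% to 5.77% in the other 3 libraries. Control 5 dpa replicate 2 had the fewest counts, 8136366, and the fewest detected rows, 19888, while the other control 5 dpa libraries had 21465 to 21650 rows. In that library 11.7% of the eligible genes lay at least 0.4 above the control 5 dpa median. The other control 5 dpa libraries had 0.373% to 1.69%.

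The count of 33 was set beside the number that the single thresholds give. The intact threshold was passed by 393 eligible genes (3.86%) and the 5 dpa threshold by 156 (1.53%). The members are 8.40% of the former list and 21.2% of the latter. The product of these shares gives 6.02 genes past both thresholds, against the 33 found. With the signs turned, 24 genes (0.236%) were at least 0.4 lower at both stages, where the product gives 3.48. Opposite directions were rarer, with 12 genes higher in intact and lower at 5 dpa (product 9.31) and 2 the other way (product 2.25). The RNAi ratios of the 2 stages share no library. Each shares a control group with the amputation bounds, without which 42 genes met the rule. The product takes the lists as independent, and the libraries of the 2 stages were not free of common patterns, as described below. It also takes the same share for genes of every level. Under 10 CPM lay 57.6% of the members, against 18.0% of the eligible genes, and a product by level was not computed. The excess over the product is therefore not a measure of chance.

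**Figure D1:**
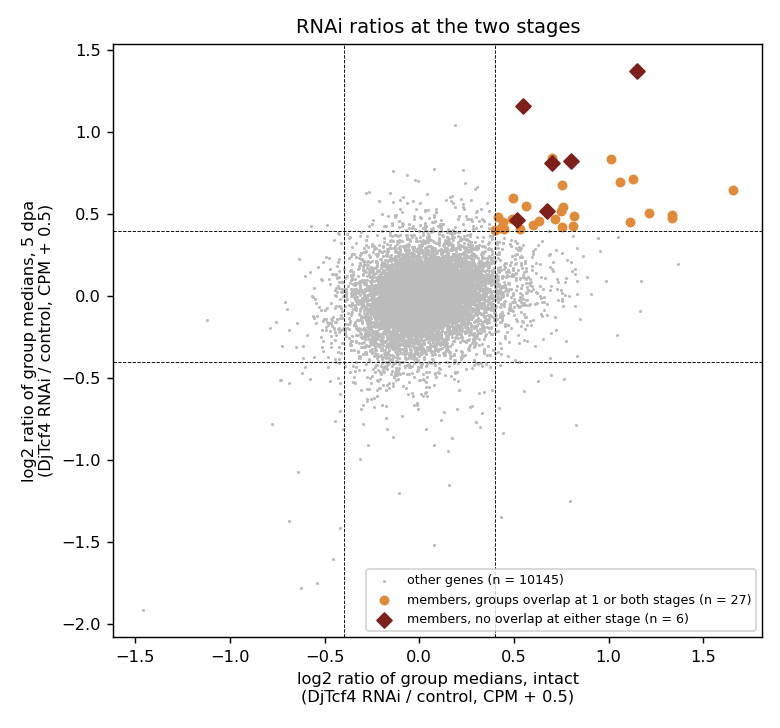
Each point is an eligible gene, with its log2 ratio of group median CPM (RNAi to control) in intact animals on the x axis and at 5 dpa on the y axis, and dashed lines at 0.4 and -0.4. The 33 members fill the upper right corner by construction, and the 6 dark diamonds are those whose RNAi and control libraries overlap at neither stage.

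The members were mostly genes of low abundance. Their median level over the 15 libraries was 9.06 CPM, against 28.5 CPM for the eligible genes, with a range from 5.06 to 141 CPM. Under 10 CPM lay 19 members (57.6%), against 18.0% of the eligible genes. Another 8 lay between 10 and 20 CPM and 6 above 20 CPM. The counts behind the members' values had a median of 111 per library and ran from 11 to 2276, apart from a single 0 in the member of rank 6. Counting error is relatively larger at low counts, and its part in the members' ratios was not tested. Fractional counts, which can arise where reads match several gene models, occurred in 7 members (21.2%), against 14.6% of the eligible genes.

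The intact ratios of the members had a median of 0.72 on the log2 scale and ran from 0.40 to 1.66. The 5 dpa ratios had a median of 0.49 and ran from 0.41 to 1.37. The medians over the eligible genes were 0.033 and 0.0041. The intact ratio was the greater in 24 members and the 5 dpa ratio in 9. An intact ratio of at least 1, a doubling, was reached by 9 members, and a 5 dpa ratio of at least 1 by 2. At the edge of the rule, the member of rank 33 had ratios of 0.40 and 0.41. The nearest gene outside on the intact side had 0.37 and 0.52, and the nearest outside on the 5 dpa side had 0.69 and 0.40 (0.398 before rounding). All these values chose the members and carry no test.

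The rule compared medians, so single libraries could still overlap. Every RNAi library lay above every control library of the same stage in 6 members at both stages, in 3 more in intact animals alone and in 4 more at 5 dpa alone, while 20 members overlapped at both stages. Over the eligible genes, RNAi libraries lay wholly above controls in 2.80% of genes in intact animals, in 3.13% at 5 dpa and in 0.128% at both. When a library was left out, the last share ran from 0.138% (without RNAi intact replicate 4) to 0.501% (without RNAi 5 dpa replicate 1), and 6 to 8 members had no overlap at both stages. Without RNAi intact replicate 2 the share was 0.255%, with 7 members. Leaving out a library can only keep or raise these numbers, because fewer libraries then have to lie apart. With all libraries the last share is 13 genes, where the product of the single shares gives 8.93. In the downward direction it was 30 genes (0.295%), where the product gives 4.28. The members were chosen on the same values, so their counts are a description.

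DJKW.832, at rank 1, had the greatest 5 dpa ratio of all members. In control intact animals it stood at 5.21, 3.46, 4.10 and 3.95 CPM, and in DjTcf4 RNAi intact animals at 7.26, 11.8, 5.68 and 12.2 CPM (replicates 1 to 4). At 5 dpa it stood at 7.86, 6.64, 7.94 and 7.80 CPM in control and at 21.1, 26.6 and 16.8 CPM with RNAi (replicates 1, 3 and 4). The groups overlapped at neither stage, although intact RNAi replicate 3 lay only slightly above control replicate 1, the highest control. The means were 4.18 ± 0.739 and 9.24 ± 3.26 CPM in intact animals (SD, n = 4 each), and 7.56 ± 0.618 (n = 4) and 21.5 ± 4.94 CPM (n = 3) at 5 dpa. The edgeR model over all genes gave log2 fold changes of 1.16 (SE 0.256) in intact animals and 1.47 (SE 0.257) at 5 dpa, and 0.96 in intact animals without RNAi replicate 2. Its level also differed between stages, with an amputation ratio of 0.88 in control animals, near the upper bound of the rule.

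DJKW.20331, at rank 3, was the other named gene and had an amputation ratio of 0.098. Its control intact libraries stood at 25.4, 42.1, 30.8 and 32.2 CPM and its RNAi intact libraries at 42.6, 68.4, 56.5 and 54.1 CPM. At 5 dpa the controls stood at 33.1, 54.7, 34.4 and 31.6 CPM and the RNAi libraries at 60.3, 60.5 and 56.4 CPM. The gaps between the groups were narrow at both stages, and control replicate 2 was the highest control in each. In intact animals RNAi replicate 1, at 42.6 CPM, also lay below the other RNAi libraries, at 54.1 to 68.4 CPM. The means were 32.6 ± 6.95 against 55.4 ± 10.5 CPM in intact animals (SD, n = 4 each) and 38.4 ± 10.9 (n = 4) against 59.1 ± 2.33 CPM (n = 3) at 5 dpa. The log2 fold changes from edgeR were 0.78 (SE 0.191) and 0.60 (SE 0.203). They were 0.60 in intact animals without RNAi replicate 2 and 0.80 at 5 dpa without control replicate 2.

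Among the other 4 members without overlap, that of rank 11 had an amputation ratio of -0.71, opposite in sign to that of DJKW.832. It stood at 9.01, 7.59, 9.06 and 7.48 CPM in control intact and at 10.4, 15.8, 14.3 and 9.90 CPM in RNAi intact animals. At 5 dpa it stood at 5.18, 4.18, 7.40 and 4.59 CPM in control and at 11.5, 12.1 and 9.49 CPM with RNAi. Its 5 dpa ratio of 1.16 was the other value of at least 1. The RNAi means were 12.6 ± 2.92 CPM in intact animals (SD, n = 4) and 11.0 ± 1.38 CPM at 5 dpa (n = 3), and every control 5 dpa library lay below every control intact library.

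The member of rank 5 was at nearly the same level at both stages, 6.90 ± 2.10 and 6.32 ± 0.704 CPM in control (SD, n = 4 each) and 11.3 ± 1.95 (n = 4) and 11.0 ± 0.846 CPM (n = 3) with RNAi. Its lowest RNAi intact library, at 9.36 CPM, was barely above its highest control, at 9.31 CPM, and its counts were in part fractional. The member of rank 13 had means of 7.35 ± 2.34 and 12.5 ± 2.68 CPM in intact control and RNAi animals and of 10.8 ± 2.96 and 16.6 ± 0.820 CPM at 5 dpa. The member of rank 22 was the most abundant of the 6, with 40.6 ± 6.63 and 58.4 ± 7.12 CPM in intact animals and 51.9 ± 5.80 and 70.6 ± 6.71 CPM at 5 dpa. In both of these the control level was higher at 5 dpa than in intact animals, with amputation ratios of 0.63 and 0.40.

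**Figure D2:**
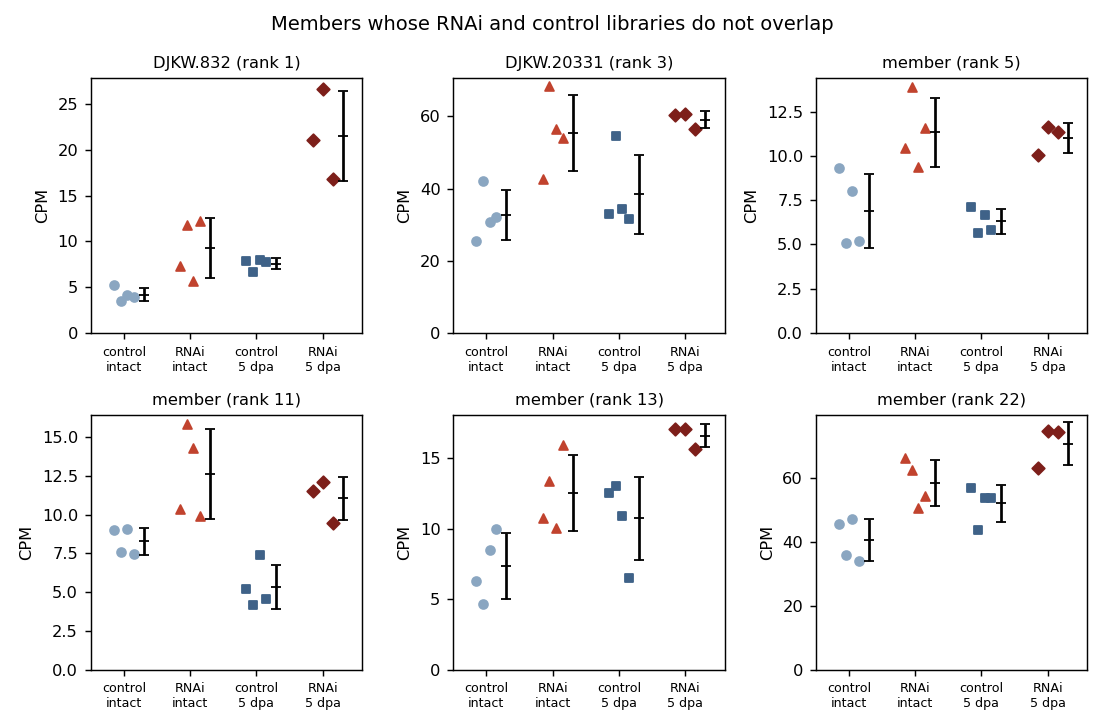
CPM in every library of the 6 members whose RNAi and control libraries overlap at neither stage, 1 panel per member, with the 4 groups on the x axis; points are libraries and the black bars show the mean and SD of each group (n = 4, 4, 4 and 3). DJKW.832 reaches 26.6 CPM with RNAi at 5 dpa, while DJKW.20331 has a control 5 dpa library at 54.7 CPM close under its RNAi libraries.

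Of the 20 members that overlapped at both stages, the clearest example was rank 9, which had the greatest intact ratio of all, 1.66. It stood at 34.9, 12.4, 15.1 and 10.7 CPM in control intact animals and at 43.9, 49.6, 12.0 and 44.9 CPM in RNAi intact animals. At 5 dpa it stood at 14.9, 6.51, 17.5 and 17.8 CPM in control and at 25.7, 35.3 and 13.7 CPM with RNAi. Control intact replicate 1 was thus far above its group, RNAi intact replicate 3 was at the level of the other controls, and so was RNAi 5 dpa replicate 4. The large ratio came from medians, and the group means were 18.3 ± 11.2 and 37.6 ± 17.2 CPM in intact animals (SD, n = 4 each).

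The most abundant member, of rank 25, had little room between groups. It stood at 141, 101, 113 and 96.1 CPM in control intact animals and at 154, 197, 127 and 138 CPM in RNAi intact animals, which overlapped. At 5 dpa the controls stood at 145, 96.5, 134 and 144 CPM and the RNAi libraries at 159, 191 and 193 CPM, with no overlap. The member of rank 6 was listed at 0 in control intact replicate 2 while the other controls stood at 8.57, 8.10 and 5.33 CPM and its RNAi intact libraries at 6.99, 12.7, 12.4 and 9.99 CPM. Some of its counts were fractional.

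The same libraries were high or low in most members. In intact animals, RNAi replicate 3 was the lowest RNAi library in 25 of the 33 members (75.8%), against 27.5% of the eligible genes, and control replicate 1 was the highest control in 23 (69.7%), against 27.6%. At 5 dpa, RNAi replicate 4 was the lowest RNAi library in 24 (72.7%), against 26.0%, and RNAi replicate 3 the highest in 26 (78.8%), against 25.9%. Among the 20 members overlapping at both stages, these counts were 18 for intact RNAi replicate 3, 16 for intact control replicate 1 and 17 for RNAi 5 dpa replicate 4. RNAi intact replicate 3 exceeded every intact control in 12 members, while replicates 1, 2 and 4 did so in 21, 32 and 27. Over the eligible genes, replicate 3 did so in 24.3%, and replicates 1, 2 and 4 in 24.9%, 45.5% and 23.2%. RNAi 5 dpa replicate 4 exceeded every 5 dpa control in 12 members, while replicates 1 and 3 did so in 26 and 29. Over the eligible genes the shares were 24.1% for replicate 4 and 20.1% and 20.2% for replicates 1 and 3.

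The same libraries were examined in genes past a single threshold. Of the 360 eligible genes past the intact threshold but not the 5 dpa threshold, control intact replicate 1 was the highest control in 71.7% and RNAi intact replicate 3 the lowest RNAi library in 63.3%. In these genes RNAi 5 dpa replicate 3 was the highest RNAi library at 5 dpa in 65.0% and replicate 4 the lowest in 49.7%, in libraries that had no part in the intact threshold. The 123 genes past the 5 dpa threshold alone had control intact replicate 1 highest in 23.6% and RNAi intact replicate 3 lowest in 29.3%, close to the shares over all eligible genes. In these 123 genes RNAi 5 dpa replicate 3 was the highest RNAi library at 5 dpa in 28.5% and replicate 4 the lowest in 46.3%.

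**Figure D3:**
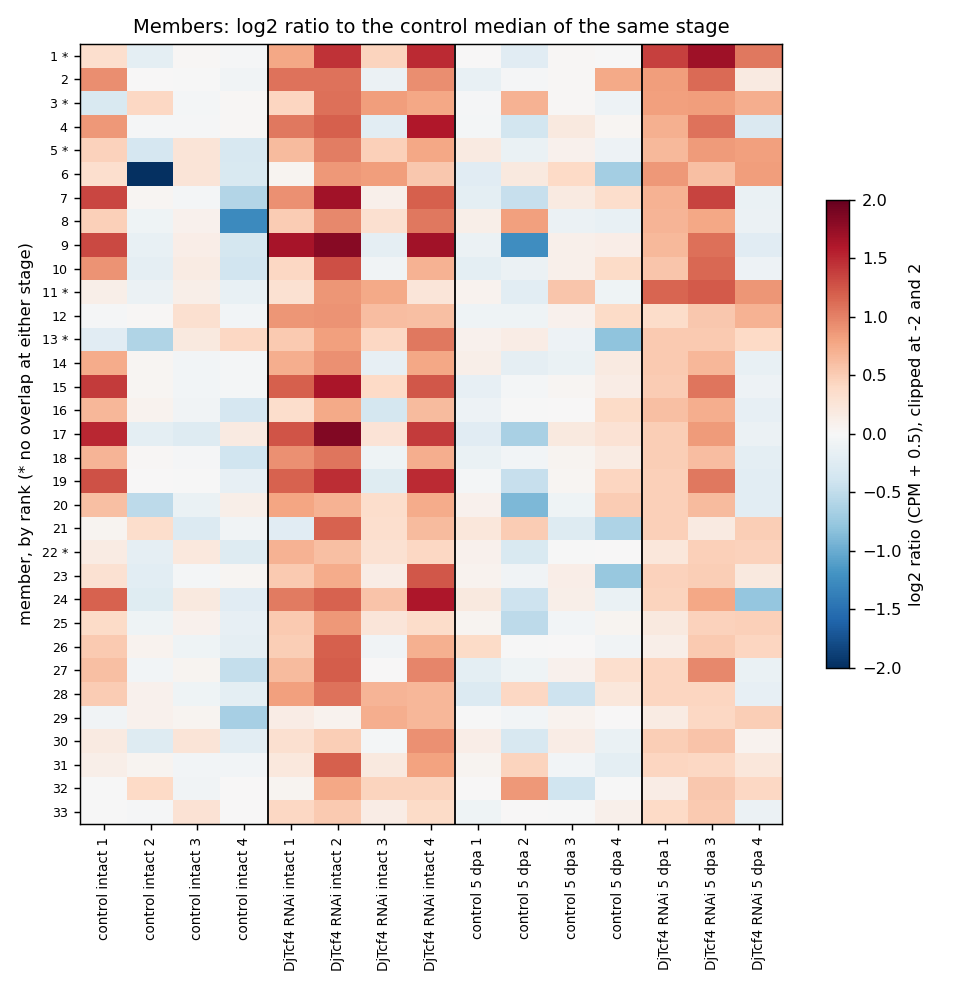
Log2 ratio of each library to the control median of the same stage (CPM with 0.5 added), for the 33 members in order of rank (y axis) and the 15 libraries (x axis), with red above and blue below and stars on the 6 members without overlap. Control intact replicate 1 is red in many rows where the other controls are pale, and DjTcf4 RNAi intact replicate 3 and 5 dpa replicate 4 are pale or blue in many rows where the other RNAi libraries are red.

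The summed level of the members was 696, 461, 497 and 432 CPM in the control intact libraries and 759, 995, 579 and 876 CPM in the RNAi intact libraries, so that RNAi replicate 3 lay below control replicate 1. At 5 dpa it was 655, 593, 661 and 631 CPM in control and 895, 1056 and 790 CPM with RNAi, with no overlap. The sum weighs abundant members most, and the members were chosen on these values, so it is a description. The median log2 ratio of the members to the control intact median was 0.48 in control replicate 1 and 0.27 in RNAi replicate 3, against 0.63, 1.07 and 0.77 in RNAi replicates 1, 2 and 4. At 5 dpa it was 0.070 in RNAi replicate 4, against 0.49 and 0.67 in replicates 1 and 3.

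The number of rows with any count also differed between these libraries. Thinned to a common depth of 8136345 counts, control intact replicate 1 had 21845 detected rows, against 20570 to 20960 in the other intact controls. RNAi intact replicates 1, 2 and 4 had 21995, 21439 and 22058 rows, and replicate 3 had 20716. At 5 dpa, RNAi replicates 1 and 3 had 21676 and 21559 rows, replicate 4 had 20537, and the controls had 19888 to 21386. The 20 members that overlapped at both stages had a median log2 ratio to control of 0.71 in control intact replicate 1, -0.018 in RNAi intact replicate 3 and -0.12 in RNAi 5 dpa replicate 4. In the 6 members without overlap the same libraries had medians of 0.14, 0.46 and 0.77. Both kinds were set apart by their overlap, so these medians describe them and are not tested. The part of the number of detected rows in the members' ratios was not tested.

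**Figure D4:**
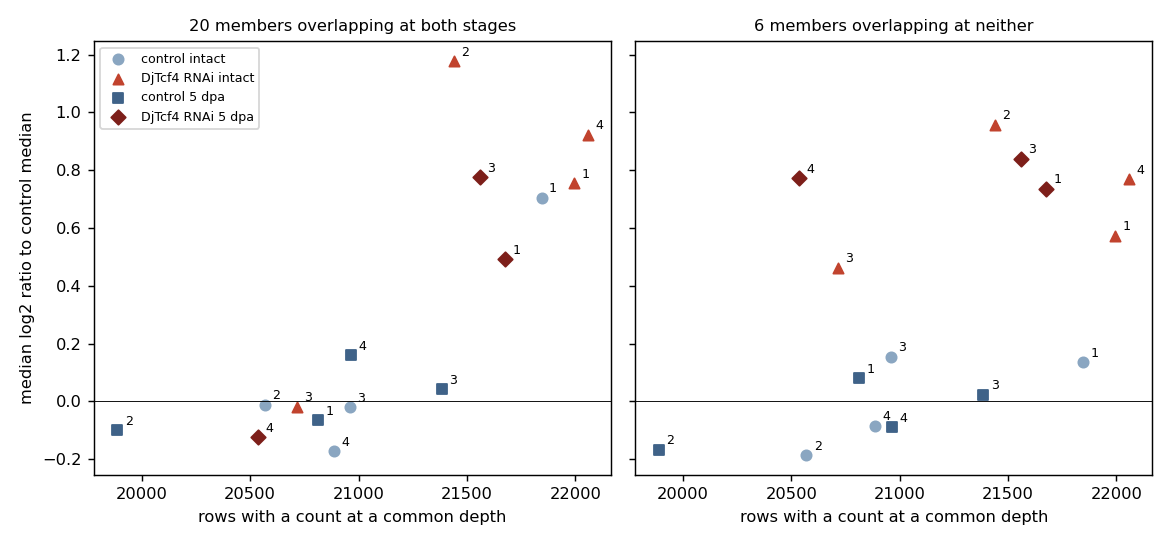
Median log2 ratio to the control median of the same stage (y axis) against the number of rows with a count at a common depth (x axis) for each of the 15 libraries, marked by group and replicate number. In the 20 members overlapping at both stages (left), control intact replicate 1 lies among RNAi libraries and RNAi intact replicate 3 and 5 dpa replicate 4 lie among controls; in the 6 members without overlap (right), every RNAi library lies above every control library.

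The members varied together within groups as well. After each group's mean was removed, the 528 pairs of members had a median Pearson correlation of 0.41 over the 15 libraries in log2 CPM, against 0.025 over all pairs of eligible genes, and 33.7% of the pairs exceeded 0.6, against 12.5%. The 20 members overlapping at both stages had a median of 0.68, and the 6 without overlap one of 0.21. DJKW.832 had a median correlation of 0.66 with the other 32 members of both kinds. Its correlation was over 0.6 for 18 of the other 32 members, against 10.6% of the eligible genes. DJKW.20331 had a median of -0.18 with the other 32 members and 3 of them over 0.6, against 10.1% of the eligible genes. The correlation between these named genes was -0.087. These correlations share the libraries, their depth and the number of detected rows, and are given as a description.

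Leaving out a library gave values that the choice of genes had not used. Without DjTcf4 RNAi 5 dpa replicate 3 the rule kept 10 genes, 9 of them members, and without replicate 4 it kept 49, of which 27 were members. Leaving out any of the other 13 libraries kept 30 to 42 genes, 30 of them without RNAi intact replicate 2. Of the 33 members, 7 were kept in all 15 of these sets, 4 of them among the 6 without overlap, and 8 were kept in fewer than 10 sets.

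The library left out was then read at the genes chosen without it. RNAi intact replicates 1, 2 and 4 had median log2 ratios of 0.49, 0.99 and 0.74 to the control intact median, while replicate 3 had 0.13, with 22.5% of 40 genes at least 0.4 above control, against 5.41% of the eligible genes. The medians over the eligible genes in these 4 libraries ran from 0.017 to 0.107, the highest being that of replicate 2. RNAi 5 dpa replicates 1 and 3 had 0.34 and 0.72, and replicate 4 had -0.10, with 14.3% of 49 genes at least 0.4 above control, against 4.77% of the eligible genes. Control intact replicate 1, left out in its turn, lay 0.57 above the median of the other controls at the 35 genes chosen without it, with 60.0% of them at least 0.4 above, against 6.09% of the eligible genes. The other control libraries lay between -0.13 and 0.23. In the other intact controls, 10.8% to 17.1% of the chosen genes were at least 0.4 above, under the 22.5% of RNAi intact replicate 3. In the 5 dpa controls the share was 15.8% to 31.4%, so the 14.3% of RNAi 5 dpa replicate 4 was lower than in every left-out control of its stage. The 31.4% came from control 5 dpa replicate 2, where 16.9% of the eligible genes were also at least 0.4 above. In 5 of the 7 RNAi libraries the genes chosen without them therefore had a median of 0.34 or more, while RNAi intact replicate 3 and 5 dpa replicate 4 had 0.13 and -0.10. The control medians used here also took part in the choice of genes, which pulls them down.

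**Figure D5:**
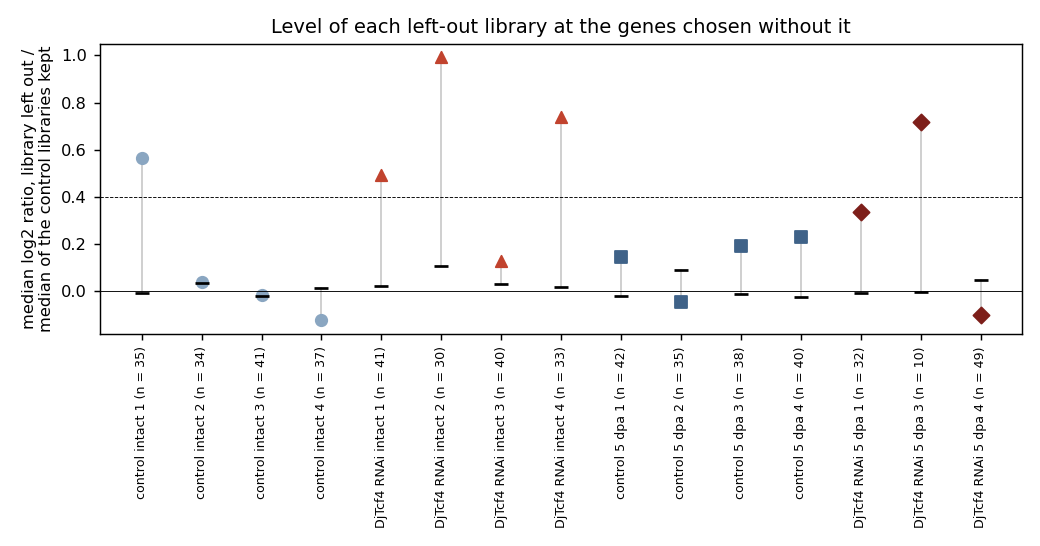
Median log2 ratio of each left-out library (x axis, with the number of genes chosen without it) to the median of the control libraries of its stage that were kept (y axis), with coloured markers for the chosen genes, black dashes for all eligible genes and a dashed line at 0.4. Control intact replicate 1 stands at 0.57, among the RNAi libraries, and DjTcf4 RNAi 5 dpa replicate 4 at -0.10, among the controls.

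The edgeR quasi-likelihood model tested 17094 genes, and all 33 members passed its filter on low counts. With RNAi in intact animals, 0 members had an adjusted p under 0.05, where 0% of all genes were called higher. At an unadjusted p under 0.05, 20 members were higher, against 4.47% of all genes. This count was 10 without RNAi intact replicate 2 (2.02% of all genes) or without control intact replicate 4 (2.52%), 11 without RNAi intact replicate 4 (4.33%) and 13 without control intact replicate 2 (2.47%). It rose to 28 without control intact replicate 1 (5.99%) and to 27 without RNAi intact replicate 3 (8.90%). DESeq2 called 1 member higher (0.0351% of all genes) and limma 0 (0.0234%). With RNAi at 5 dpa, 1 member, DJKW.832, was called higher, and it was the 1 gene called higher of all tested (0.00585%). At an unadjusted p, 8 members were higher, against 1.05% of all genes. This count was 4 without RNAi 5 dpa replicate 3 (0.892%) and 5 without control 5 dpa replicate 2 (1.04%). At its highest it was 10, without control intact replicate 2 (1.18%). DESeq2 called 2 members there (0.0234% of all genes) and limma 3 (0.0468%). The DJKW.832 call ended, leaving 0 members called, when any of the 7 libraries at 5 dpa or control intact replicate 2, 3 or 4 was left out, and with the replicate number as a block (adjusted p = 0.23). Its log2 fold change at 5 dpa stayed between 1.29 and 1.62 in the alternatives tried. The rule used these contrasts, so nothing is read from the counts.

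Over the members, edgeR log2 fold changes had a median of 0.70 in intact animals (range 0.29 to 1.16) and of 0.44 at 5 dpa (range 0.17 to 1.47), against 0.025 and -0.0019 over all genes tested. Without RNAi intact replicate 2 the intact median was 0.47, and without RNAi 5 dpa replicate 3 the 5 dpa median was 0.29, with 32 members above 0. The intact median was highest without control intact replicate 1, at 0.83, and the 5 dpa median without RNAi 5 dpa replicate 4, at 0.58. The member of rank 9, with a rule ratio of 1.66 in intact animals, had an edgeR log2 fold change of 1.05 there (SE 0.479).

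Control animals also differed between stages in some members, within the bounds set by the rule. The amputation ratio had a median of 0.45 over the members, against 0.064 over the eligible genes, and was above 0 in 26 of 33 (78.8%), against 56.1%. The RNAi ratios of the rule share the control medians of this ratio, so nothing is read from the difference. With edgeR, 9 members were called higher at 5 dpa in control animals and 1 lower, against 14% and 16.1% of all genes. With DjTcf4 RNAi, 2 members were called higher at 5 dpa and 1 lower, against 6.81% and 6.67%. DJKW.832 was called higher in both, with log2 fold changes of 0.92 (SE 0.258) in control and 1.23 (SE 0.254) with RNAi. In both directions together, 10 members were called in control (30.1% of all genes) and 3 with RNAi (13.5%). Without control 5 dpa replicate 1, 5 members were called in control (17.4% of all genes). Without RNAi intact replicate 2, 7 were called with RNAi (36.6% of all genes), and without RNAi 5 dpa replicate 3, 1 was called (5.99%).

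The interaction asked whether the RNAi response differed between stages. With edgeR 0 members were called (0.00585% of all genes, either direction), and 0 had an unadjusted p under 0.05 (3.47% of all genes). DESeq2 and limma also called 0 members, where they called 0.041% and 0.0293% of all genes. The interaction of the members had a median log2 difference (5 dpa minus intact) of -0.20, with a range from -0.64 to 0.40, and was above 0 in 7 members. The median rested on single libraries: it was -0.015 without RNAi intact replicate 2, -0.073 without RNAi 5 dpa replicate 4 and -0.085 without control intact replicate 2, with 14, 14 and 13 members above 0. Over the 15 libraries left out in turn, the medians ran from -0.30 (RNAi intact replicate 3, with 2 members above 0) to -0.015, and 2 to 14 members lay above 0. A p that misses the threshold does not show that the responses were alike, and the bounds of the rule narrow the range of the differences.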

How the data were processed

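Libraries were made from polyadenylated RNA captured on oligo-dT beads and sequenced in pairs on an Illumina instrument, per the labels' protocols. The authors deposited expected counts per gene model, of which 8.23% are fractional. Bowtie2, HISAT2, RSEM and DESeq2 are listed, without roles or versions, per the submitters' processing notes. Neither genome build nor annotation is named in the labels or the table. Ratios, CPM and the rule used the deposited values, and tests used rounded counts. Means ± SD are over libraries. Whether replicates were separate sets of animals is not stated, so the spread and p-values may be partly technical.

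Tests used edgeR 4.0.16 in R 4.3.3, fitted to all 15 libraries with 1 coefficient per group, TMM scaling, filterByExpr (minimum count 10, total 15), robust quasi-likelihood and Benjamini-Hochberg adjusted p under 0.05 over all genes; standard errors are the log2 fold change divided by the root of F. The step was tested on simulated data. Alternatives were DESeq2 1.42.0 and its size factors, limma 3.58.1 (voom with quality weights), no filter, the replicate number as a block, other settings of the rule and leaving out each library. Thinned row numbers are expected values under sampling without replacement. The 2 named genes are the first by rank among members without overlap at either stage; members given by rank were picked after their values were seen, as were the libraries compared by name. The members and lists were chosen with earlier results of these data known.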

Additional observations from a re-analysis of the deposited data

Results flagged for a closer look

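In the groups of 4 libraries, 42 sets of 4 values were examined for a single library far from the other 3, and 5 stood out. Chance marks about 1 in 20 independent sets of normal values in this way. These sets share libraries, and some were of members picked for their values, so this rate is only a rough guide. Control 5 dpa replicate 2 gave 3 of the 5. It had 19888 detected rows, where its group otherwise had 21465 to 21650. It was also the library with the fewest counts, 8136366. At a common depth the others of its group had 20813 to 21386 rows, and the library did not stand out by this number. DJKW.832 was low there, at 6.64 CPM against 7.80 to 7.94 CPM. DJKW.20331 was high there, at 54.7 CPM where the others had 31.6 to 34.4 CPM, so this library narrowed the gap between RNAi and control for that gene. In the member of rank 9, DjTcf4 RNAi intact replicate 3 stood at 12.0 CPM, where the rest of its group ran from 43.9 to 49.6 CPM. In the member of rank 33, control intact replicate 3 stood at 5.97 CPM, against 4.69 to 4.78 CPM. Groups of 3 libraries were not examined.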

How the results depend on the processing

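The count of 33 members moved with the settings of the rule. It was 130 with a floor of 1 CPM and 14 with a floor of 10 CPM, and 83 and 15 with log2 thresholds of 0.3 and 0.5. It was 10 to 49 when a library was left out. The other settings (pseudocount, group mean, TMM or DESeq2 scaling, no amputation bound, all rows) gave 26 to 42, and the group mean in place of the median gave 29 genes, 20 of them members. Members called with RNAi in intact animals (0) numbered 1 with DESeq2. Members called with RNAi at 5 dpa (1) numbered 2 with DESeq2, 3 with limma and 0 with the replicate block, and 0 to 1 without a library. Members called after amputation in control (10, with 30.1% of all genes) numbered 5 to 13 without a library. The 5 came without control 5 dpa replicate 1 (17.4% of all genes) and the 13 without RNAi intact replicate 2 (41.2%). After amputation with RNAi (3), 12 were called with limma (40.9% of all genes, against 13.5% in edgeR) and 1 to 7 without a library. The 1 came without RNAi 5 dpa replicate 3 (5.99% of all genes) and the 7 without RNAi intact replicate 2 (36.6%). The members without overlap at both stages (6) numbered 6 to 8 without a library (eligible genes 0.138% to 0.501%, against 0.128%). Leaving out a library can only keep or raise these numbers, so they cannot show stability. This alternative was chosen after seeing the data. The log2 fold changes of DJKW.832 and DJKW.20331 kept their sign in all 20 alternatives at both stages. Both genes were named because their RNAi libraries lay above every control at both stages. Leaving out a library could therefore hardly turn the sign, and nothing is read from this. The labels do not say that replicate numbers pair libraries, so the numbers were not taken as pairs. Same-numbered control and RNAi libraries of a stage had correlations from -0.35 to 0.22. Those with different numbers ran from -0.73 to 0.66 in intact animals and from -0.53 to 0.65 at 5 dpa. Such correlations cannot exclude pairing, and numbers were not compared between stages. The cause of the changes between settings was not tested, nor was the part of counting error in them. Most members lay under 10 CPM, where counting error is relatively larger.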

Other observations

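The 9793 rows whose ID has a prefix other than DJKW were outside the rule. Of these, 68 met its conditions on level and amputation ratio, and 2 had RNAi ratios of at least 0.4 at both stages.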
